A study of Mus musculus with 12 samples.

Results

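Transcripts of 35 skeletal muscle genes were followed in RNA-seq libraries of mouse brown adipose tissue. The genes were chosen by name, with no threshold on any measured value, and all 35 were found among the 24452 genes of the deposited RPKM table (reads scaled to gene length and library depth). They were split into 14 fast fibre genes, 4 slow fibre genes and 17 other genes, which are of both fibre kinds or were not split by kind. The 12 libraries came from male C57BL/6J mice at 12 weeks of age that carried floxed alleles of the nuclear receptors ERRα and ERRγ and were kept at 30 °C. The libraries formed 4 groups of 3. ERRKO_CL and ERRKO_PBS were ERRαγAd-/- mice, in which Cre under the adiponectin promoter deletes both receptors in fat cells. WT_CL and WT_PBS were floxed littermates without Cre. The CL groups were injected intraperitoneally every day for 10 days with 1 mg/kg of CL316,243, which activates β3-adrenergic receptors, and the PBS groups were injected with PBS. Tissue was taken 24 hours after the last dose. The labels do not say whether each library came from a separate animal, so p-values measure only the spread between these samples.

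The libraries held 12468001 to 12954186 recovered reads in ERRKO_CL, 12822176 to 13263567 in ERRKO_PBS, 8979123 to 9559239 in WT_CL and 8478310 to 9727167 in WT_PBS. Levels are given as RPKM after the libraries were scaled to a common median ratio ("scaled RPKM"). The fat cell marker Fabp4 was at 8306 to 15145 scaled RPKM over all 12 libraries, and Adipoq, the adiponectin gene, at 692 to 1806. The brown fat uncoupling protein gene Ucp1 was at 27.8 to 54.6 scaled RPKM in ERRKO_CL, 3.24 to 6.37 in ERRKO_PBS, 1845 to 2973 in WT_CL and 315 to 540.1 in WT_PBS. Esrra, which encodes ERRα, was at 5.25 to 8.89 scaled RPKM in the ERRKO libraries, against 41.6 to 83.3 in the WT libraries. Esrrg, which encodes ERRγ, was at 6.40 to 8.14 scaled RPKM in ERRKO_CL and 2.29 to 4.71 in ERRKO_PBS, against 5.63 to 8.15 in WT_CL and 4.41 to 8.26 in WT_PBS. Its log2 change was 0.03 ± 0.25 in ERRKO_CL against WT_CL (SE, adjusted p = 0.942 by limma) and -0.87 ± 0.25 in ERRKO_PBS against WT_PBS (adjusted p = 0.0183 by limma). Gene-level Esrrg in ERRKO_CL thus went against the label, and which part of the gene is deleted is not given in the sources used here. ERRKO_CL is used below as the label of these libraries.

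A skeletal muscle fibre contracts when calcium, released through the ryanodine receptor, binds troponin C on actin filaments and lets myosin heads pull on them. Fast and slow fibres build this machinery from paralogous genes for myosin heavy chains, troponin subunits, calcium pumps and calsequestrins. In mice the depot between the shoulder blades, the best known brown fat, lies against muscle, and brown adipocytes and skeletal muscle share developmental precursors that express Myf5. The labels do not name the depot sampled. In bulk tissue, fewer cells of a type and less RNA per cell cannot be told apart.

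The promoters of 4 members that stand for the classes described here are shown because muscle genes are classically driven through shared elements. Ckm encodes muscle creatine kinase, which recharges ATP, and its window lies at chr7:19410844-19411143 (plus strand). Acta1 encodes skeletal α-actin, with its window at chr8:123894726-123895025 (minus strand). Mylpf encodes the fast regulatory myosin light chain, at chr7:127211358-127211657 (plus strand), and Tnnc1 encodes slow and cardiac troponin C, at chr14:31208062-31208361 (plus strand). Each window spans the RefSeq transcription start, with most of it upstream, on build GRCm38.p6 and is written 5′ to 3′ in the sense of the gene. Capitals mark the E-box CAGCTG, a site bound by myogenic factors, and the MCAT element CATTCC, in Tnnc1 on the opposite strand.
Ckm: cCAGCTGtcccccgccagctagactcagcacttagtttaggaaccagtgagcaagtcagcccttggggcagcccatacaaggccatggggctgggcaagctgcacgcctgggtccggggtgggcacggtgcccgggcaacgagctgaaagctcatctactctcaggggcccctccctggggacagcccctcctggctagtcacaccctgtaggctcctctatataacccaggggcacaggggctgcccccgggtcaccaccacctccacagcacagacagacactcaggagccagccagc
Acta1: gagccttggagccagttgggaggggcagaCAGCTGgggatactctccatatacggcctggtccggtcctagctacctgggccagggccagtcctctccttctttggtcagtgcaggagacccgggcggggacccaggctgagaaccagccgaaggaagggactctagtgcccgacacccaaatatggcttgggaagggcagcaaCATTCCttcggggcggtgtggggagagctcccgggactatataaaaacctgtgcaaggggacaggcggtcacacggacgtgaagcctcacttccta
Mylpf: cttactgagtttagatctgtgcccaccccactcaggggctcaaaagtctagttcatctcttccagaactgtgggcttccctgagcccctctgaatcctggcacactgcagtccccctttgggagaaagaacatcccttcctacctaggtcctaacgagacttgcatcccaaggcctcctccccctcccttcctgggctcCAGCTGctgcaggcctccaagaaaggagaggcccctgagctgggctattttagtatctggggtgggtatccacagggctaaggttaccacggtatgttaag
Tnnc1: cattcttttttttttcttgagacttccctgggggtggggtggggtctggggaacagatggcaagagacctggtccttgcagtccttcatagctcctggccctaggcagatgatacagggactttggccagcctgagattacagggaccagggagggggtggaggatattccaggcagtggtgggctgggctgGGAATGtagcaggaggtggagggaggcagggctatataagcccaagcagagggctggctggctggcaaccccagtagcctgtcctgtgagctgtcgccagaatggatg

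RefSeq promoter windows were found for 26 of the 35 members, as 31 windows of 32851 in all. Both strands were searched for 4 motifs. CAGCTG was found in 17 of the 31 member windows, belonging to 15 members, against 16.3% of all windows. CATTCC was found in 11 member windows, against 14.7% of all windows, and the consensus of the muscle factor MEF2 in 6, against 3.19%. The nuclear receptor half-site AAGGTCA was in 0 of the 31, against 4.72% of all windows. These matches describe the letters of the windows only.

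The summed level of the 35 members differed 67.7-fold over the 12 libraries. It was 339, 1132 and 2432 scaled RPKM in ERRKO_CL, 613, 198 and 4497 in ERRKO_PBS, 201, 103 and 624 in WT_CL, and 486, 66.4 and 96.3 in WT_PBS, for replicates 1, 2 and 3 in that order here and below. ERRKO_PBS replicate 3 was highest and WT_PBS replicate 2 lowest, and in each group the highest library held at least 6.07 times the sum of the lowest. The 4 groups overlapped. As a share of recovered reads the members took 1.37% in ERRKO_PBS replicate 3 (95% Wilson interval 1.36 to 1.37%), against 0.019% in WT_PBS replicate 2 (0.0181 to 0.0199%), intervals that cover counting error only. WT_CL replicate 2 and WT_PBS replicates 2 and 3 had the lowest sums, listed 10, 6 and 3 of the members at 0 and had 7, 8 and 12 members above 1 scaled RPKM. No member was at 0 in the other 9 libraries.

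Ckm stood at 23.4, 87.6 and 213 scaled RPKM in ERRKO_CL, 46.7, 11.1 and 389 in ERRKO_PBS, 10.1, 0 and 49.2 in WT_CL, and 37.9, 0.0516 and 0.807 in WT_PBS. Every ERRKO library and WT_CL replicates 1 and 3 and WT_PBS replicate 1 were above 1, and WT_CL replicate 2 had 0 of 9559239 recovered reads, a count that allows up to 3 reads. Acta1 stood at 44.9, 139 and 278 scaled RPKM in ERRKO_CL, 79.6, 23.2 and 528 in ERRKO_PBS, 10.7, 0.374 and 58.6 in WT_CL, and 46.2, 0.326 and 2.00 in WT_PBS. Its order over the libraries was led by the same 2 libraries, ERRKO_PBS replicate 3 and ERRKO_CL replicate 3. Tnnt3, the fast troponin T that ties troponin to tropomyosin, was the highest member of all in ERRKO_PBS replicate 3, with 31.5, 123 and 284 scaled RPKM in ERRKO_CL, 66.3, 16.7 and 561 in ERRKO_PBS, 13.1, 0.373 and 58.4 in WT_CL, and 53.5, 0.195 and 1.53 in WT_PBS. Its groups overlapped in the same way, and its WT_CL replicate 2 value rests on 5 reads.

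The giant structural genes were low per length and followed the same libraries. Ttn, for titin, the spring of the sarcomere, reached 2.21 scaled RPKM in ERRKO_PBS replicate 3 and was at 0.114 to 1.06 in ERRKO_CL. Neb, for nebulin, which sets thin filament length, reached 7.40 scaled RPKM and Xirp2, an actin-binding protein of muscle attachments, 9.36, both in ERRKO_PBS replicate 3. The genes of excitation and calcium release behaved alike: Ryr1, the release channel, reached 7.38 scaled RPKM, Cacna1s, its voltage sensor, 6.13, and Trdn, for triadin, which anchors calsequestrin to the channel, 10.2. For 31 members, ERRKO_PBS replicate 3 was the highest of the 12 libraries, and for the 4 slow fibre genes it was ERRKO_CL replicate 3.

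**Figure D1:**
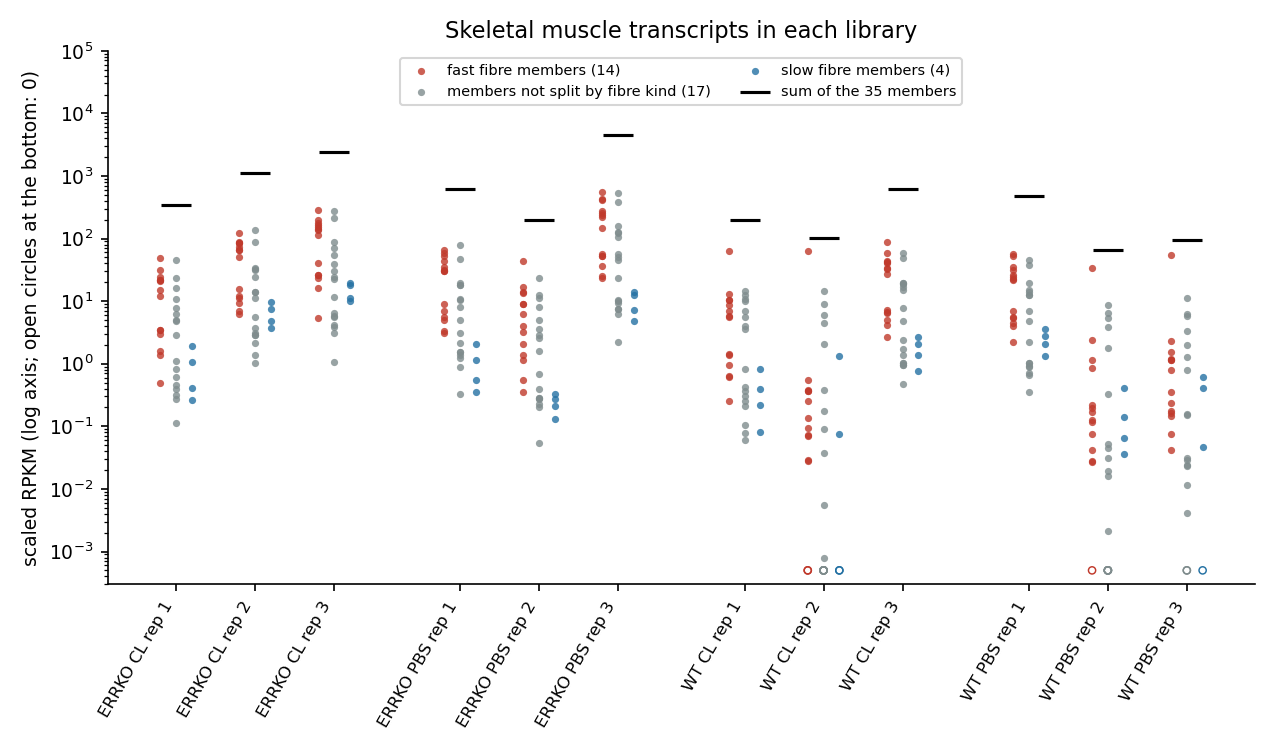
Level of each of the 35 members in each of the 12 libraries in scaled RPKM on a log axis, by fibre kind, with the sum as a black bar and values of 0 as open circles at the bottom. The sum spans 66.4 to 4497, and WT_CL replicate 2, WT_PBS replicate 2 and WT_PBS replicate 3 have 7, 8 and 12 of the 35 members above 1.

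In all, 6 members were at 1 scaled RPKM or more in all 12 libraries, including those 3. Myl1, the fast essential myosin light chain, stood at 48.6, 89.1 and 154 scaled RPKM in ERRKO_CL, 58.4, 43.2 and 219 in ERRKO_PBS, 63.2, 62.2 and 87.8 in WT_CL, and 55.7, 33.7 and 55.1 in WT_PBS. In WT_CL replicate 2 it made up 60.6% of the summed level of the 35 members, against 4.87% in ERRKO_PBS replicate 3. Des, for desmin, the intermediate filament that also serves heart and smooth muscle, stood at 6.20, 13.9 and 22.8 scaled RPKM in ERRKO_CL, 10.7, 4.94 and 44.9 in ERRKO_PBS, 12.3, 14.6 and 16.5 in WT_CL, and 15.1, 8.67 and 11.1 in WT_PBS. All 6 WT libraries lay within the range of the 6 ERRKO libraries, of which ERRKO_PBS replicate 3 was highest and ERRKO_PBS replicate 2 lowest. In the 3 libraries poorest in Ckm, Tpm2 (β-tropomyosin) was at 4.40 to 5.69 scaled RPKM, Eno3 (the muscle enolase of glycolysis) at 5.94 to 6.46, Mb (myoglobin, which stores oxygen) at 3.31 to 9.14 and Pygm (muscle glycogen phosphorylase) at 1.27 to 2.04. Without these 6 genes the sum of the other 29 members ran from 4.42 to 3819 scaled RPKM, an 865-fold range. Mybpc2, fast myosin-binding protein C, also held 2.42 and 2.34 scaled RPKM in WT_PBS replicates 2 and 3, but was at 0 in WT_CL replicate 2.

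Whether the members kept one ratio to each other was described in the 9 libraries in which Ckm was at least 1 scaled RPKM. For each member, log2 of its level over the summed level of the other members was taken, and the SD of that value over the 9 libraries is its measure of steadiness. An SD of at most 0.5 was found for 20 of 35 members, 10 of them fast, 10 among the other 17 and none slow. The median SD was 0.419 for the fast members, 0.943 for the slow members and 0.447 for the other 17, with Pygm lowest at 0.171 and Myh7 highest at 1.20. The summed level is mostly fast: in ERRKO_PBS replicate 3 fast members gave 2795 and slow members 38.9 of 4497 scaled RPKM. Fast members were thus compared largely with fast members and slow members were not, so these medians are not measured alike. Slow members also rest on few reads in places, such as 3 of Tnni1 and 4 of Tnnc1 in ERRKO_PBS replicate 2. Against the 29 members that fell below 1 in at least 1 of the 3 poorest libraries, a yardstick chosen after the values were seen, 25 of 35 were at 0.5 or less. There Tnnt3 had an SD of 0.0877, Ckm 0.101, Myoz1, a Z-disc protein that binds calcineurin, 0.141, and Casq1, the calsequestrin of fast fibres, 0.156. On that yardstick, also made up mostly of fast members, the fast median was 0.233 and the slow members ranged from 0.702 to 1.02.

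**Figure D2:**
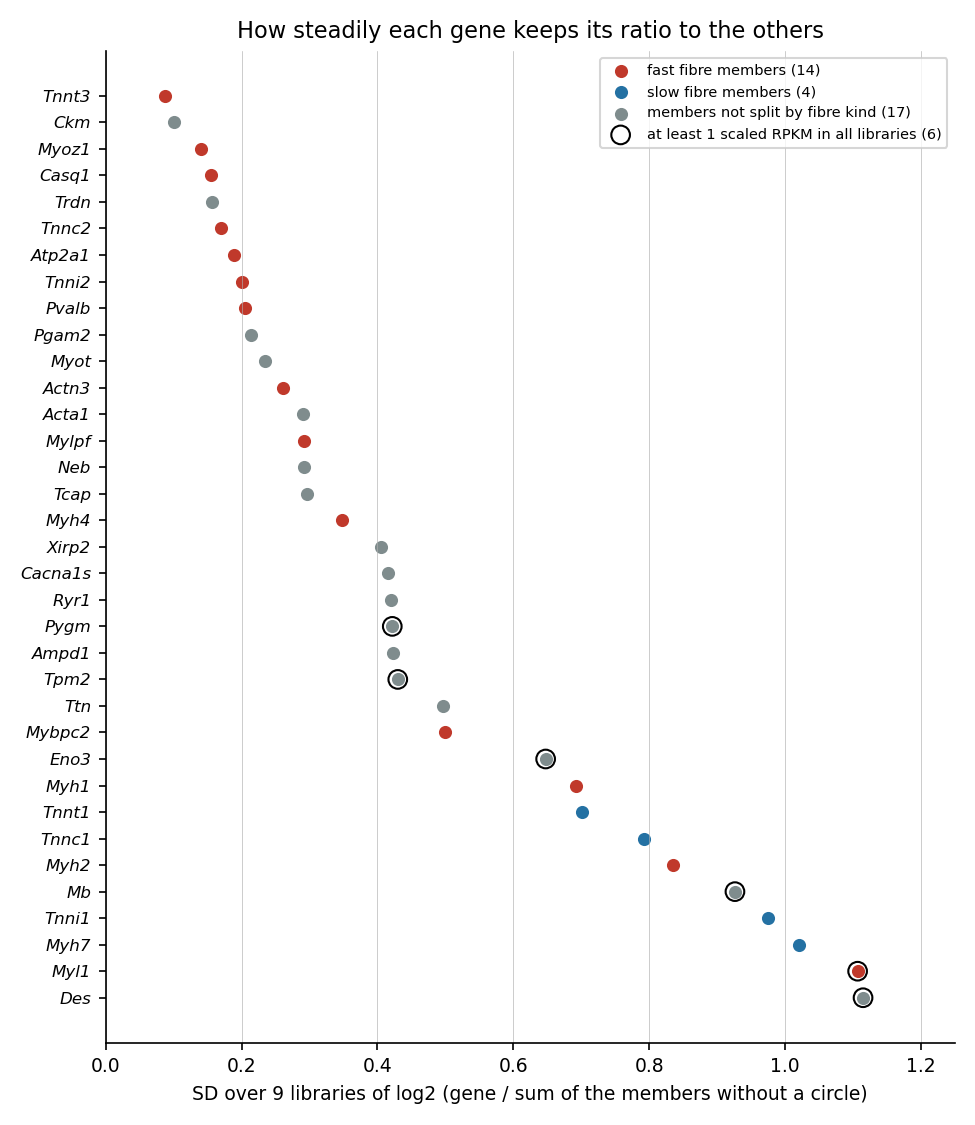
SD over the 9 libraries with Ckm of at least 1 scaled RPKM of log2 of each gene's level over the summed level of the 29 members without a circle, the gene itself left out. Tnnt3 and Ckm are near 0.1, the 4 slow fibre genes lie between 0.702 and 1.02, and Des and Myl1 are above 1.

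Single pairs differed in how far their ratio moved. Acta1 was at 1.04 to 2.58 times Mylpf over the 9 libraries, and Ckm at 0.478 to 0.945 times Acta1, while Ckm itself ran from 10.1 to 389 scaled RPKM. Among the fast myosins the ratios moved more, with Myh4 over Myh1 at 1.26 to 9.80, a 7.76-fold range, and Myh4 over Myh2 at 5.90 to 24.4, a 4.13-fold range. Tnnt3 took 6.52% of the summed member level in WT_CL replicate 1 and 8.40 to 12.5% in the other 8 libraries, and Mylpf took 4.46 to 6.85%. Pvalb, the calcium buffer parvalbumin of the fastest fibres, took 4.27 to 6.31%. In WT_CL replicate 1 Myl1 took 31.5% of the sum, its highest share of the 9 libraries.

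The 4 slow fibre genes had the higher median SD, but single genes crossed over: the fast members Myh2 at 0.995 and Myl1 at 0.994 were less steady than the slow Tnnt1 at 0.817 and Tnnc1 at 0.849. The difference between the lists was not tested. Summed over the 14 fast and the 4 slow members, the ratio of fast to slow RPKM was 57.5, 27.1 and 25.7 in ERRKO_CL, 91.5, 132 and 71.8 in ERRKO_PBS, 85.4, 46.7 and 58.5 in WT_CL, and 30.8, 59.4 and 60.1 in WT_PBS. All 3 ERRKO_PBS libraries were above all 3 ERRKO_CL libraries and also above all 3 WT_PBS libraries. ERRKO_CL overlapped WT_CL, and the 2 WT groups overlapped. On the log2 scale the ratio was 5.10 ± 0.65 in ERRKO_CL, 6.58 ± 0.44 in ERRKO_PBS, 5.95 ± 0.44 in WT_CL and 5.58 ± 0.55 in WT_PBS (mean ± SD, n = 3 each), and its SD over all 12 libraries was 0.722. The SD was 1.48 over the 12 libraries with the median log2 level of each list in place of the sum. With the myosin heavy chains only it was 1.41, over the libraries with Myh7 above 0. That leaves out WT_CL replicate 2 and keeps WT_PBS replicates 2 and 3, which had 3 and 4 reads of Myh7. The ratio differed 5.14-fold over the 9 libraries with Ckm of at least 1, and the summed level differed 22.7-fold there. As a ratio over the members it is given with no test.

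Myl1 made up 33.7 of the 39.2 scaled RPKM of the fast sum in WT_PBS replicate 2, so the ratio in the 3 poorest libraries rests largely on that gene. Without Myl1 and Tnnc1, a choice made after the values were seen, the ratio was 92.5, 37.9 and 34.9 in ERRKO_CL, 155, 122 and 104 in ERRKO_PBS, 94.3, 31.3 and 65.2 in WT_CL, and 39.9, 22.3 and 20.1 in WT_PBS. The 3 poorest libraries were then the lowest of the 12, but their slow sums rest on very few reads. Myh7, Tnnt1 and Tnni1 had 0, 0 and 1 reads in WT_CL replicate 2. These genes had 3, 2 and 1 reads in WT_PBS replicate 2, and 4, 6 and 0 in WT_PBS replicate 3. All 3 ERRKO_PBS libraries remained above all 3 ERRKO_CL libraries and above all 3 WT_PBS libraries. The SD over 12 libraries, the 3 poorest included, was then 1.00.

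Each of the 4 slow members was set against a fast paralog. Tnnt3 over Tnnt1, the slow troponin T, was 29.8, 16.3 and 15.9 in ERRKO_CL, 57.0, 50.7 and 44.0 in ERRKO_PBS, 33.1 and 22.2 in WT_CL replicates 1 and 3, and 19.5 in WT_PBS replicate 1. Tnnc2 over Tnnc1, the fast and slow calcium sensors, was 12.8, 8.76 and 10.0 in ERRKO_CL, 25.0, 51.6 and 30.4 in ERRKO_PBS, 12.6 and 19.8 in WT_CL replicates 1 and 3, and 8.74 in WT_PBS replicate 1. For both of these pairs the 3 ERRKO_CL libraries lay below the 3 ERRKO_PBS libraries, and WT_PBS replicate 1 lay near the lowest ERRKO_CL libraries. Tnni2 over Tnni1, the fast and slow inhibitory subunits, was 81.3, 22.9 and 18.0 in ERRKO_CL, 121, 104 and 86.4 in ERRKO_PBS, 31.2 and 56.6 in WT_CL replicates 1 and 3, and 26.3 in WT_PBS replicate 1. ERRKO_CL replicate 1 and ERRKO_PBS replicate 3 were close here, and the denominators are thin: ERRKO_PBS replicate 2 had 4 reads of Tnnc1, 7 of Tnnt1 and 3 of Tnni1, WT_CL replicate 1 had 7, 5 and 3 of them, and ERRKO_CL replicate 1 had 6 of Tnni1. Myh4 over Myh7 was 29.9, 10.6 and 10.2 in ERRKO_CL, 55.2, 19.3 and 20.8 in ERRKO_PBS, 71.4 and 19.5 in WT_CL replicates 1 and 3, and 11.1 in WT_PBS replicate 1. For the myosins the ERRKO_CL and ERRKO_PBS libraries overlapped. They overlapped as well for Mylpf over Myl2, the slow regulatory light chain outside the list, which was 20.8, 6.36 and 6.43 in ERRKO_CL, 16.9, 29.8 and 14.6 in ERRKO_PBS, 79.7 and 15.97 in WT_CL replicates 1 and 3, and 5.84 in WT_PBS replicate 1. For Tnnc2, 74.0% of the annotated exon bases overlap Ube2c on the other strand, which was at 1.33 to 3.09 scaled RPKM, so its low values are uncertain.

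**Figure D3:**
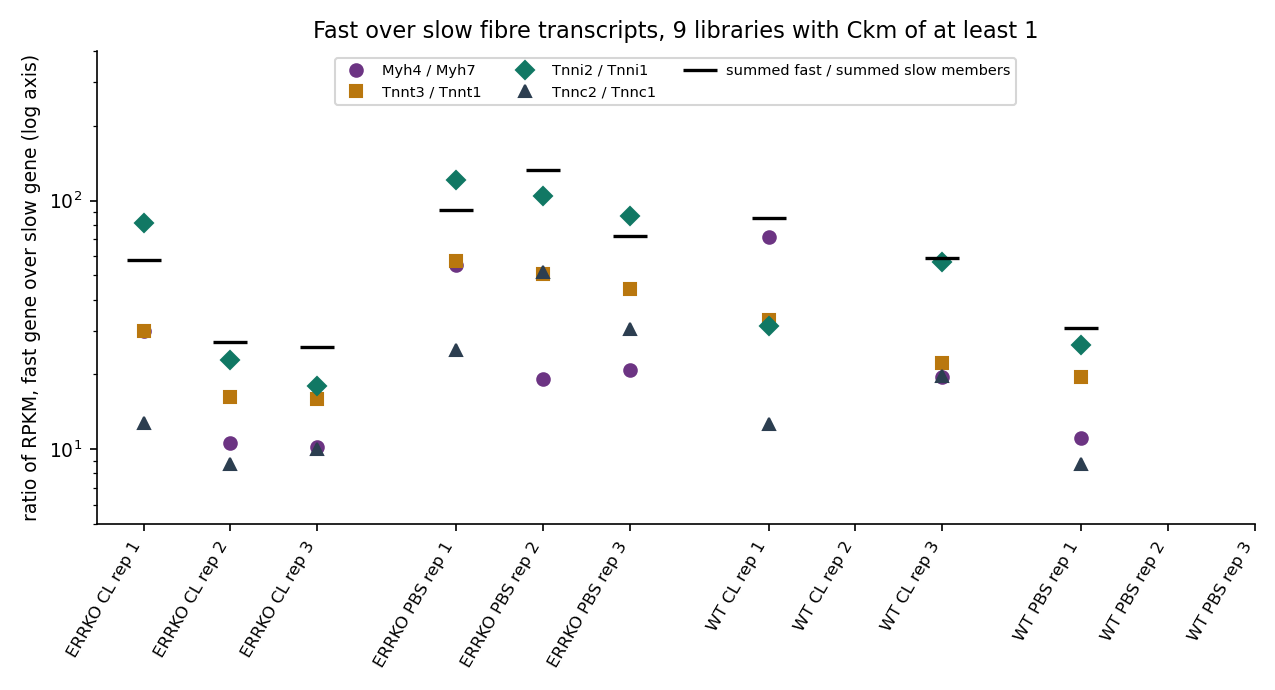
Ratio of the RPKM of a fast gene to its slow paralog, on a log axis, in the 9 libraries with Ckm of at least 1 scaled RPKM, with the ratio of summed fast to summed slow members as a bar. The bars are at 25.7 to 57.5 in ERRKO_CL and at 71.8 to 132 in ERRKO_PBS. They are at 85.4 and 58.5 in WT_CL replicates 1 and 3 and at 30.8 in WT_PBS replicate 1.

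The slow members themselves stood highest in ERRKO_CL replicate 3. Tnnt1 was at 1.06, 7.58 and 17.9 scaled RPKM in ERRKO_CL, 1.16, 0.329 and 12.7 in ERRKO_PBS, 0.396, 0 and 2.63 in WT_CL, and 2.74, 0.142 and 0.416 in WT_PBS. Tnnc1 was at 1.90, 9.62 and 19.8 scaled RPKM in ERRKO_CL, 2.08, 0.275 and 14.2 in ERRKO_PBS, 0.813, 1.31 and 2.05 in WT_CL, and 3.63, 0.415 and 0.609 in WT_PBS. For both genes ERRKO_CL replicate 3 was above ERRKO_PBS replicate 3, the reverse of their order for Ckm and Acta1, and the 4 groups overlapped. Myh7, the slow and cardiac β-myosin heavy chain, was at 0.409, 4.77 and 11.1 scaled RPKM in ERRKO_CL, 0.550, 0.208 and 7.14 in ERRKO_PBS, 0.0809, 0 and 1.37 in WT_CL, and 2.05, 0.0362 and 0.0471 in WT_PBS. Among 6 further slow fibre genes, Myl2, Myl3 (the slow essential light chain) and Myoz2 (a Z-disc protein of slow fibres) also peaked in ERRKO_CL replicate 3, at 25.7, 12.1 and 4.64 scaled RPKM. Csrp3 and Ankrd2, stretch-responsive proteins of slow fibres and heart, peaked in ERRKO_PBS replicate 3 at 10.9 and 4.90, and Casq2, the calsequestrin of slow fibres and heart, stayed at 0.766 to 2.80 scaled RPKM over all 12 libraries.

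Myosin heavy chains set the speed of a fibre, with Myh4 (type IIb) the fastest, then Myh1 (IIx), Myh2 (IIa) and the slow Myh7. Myh2, Myh1 and Myh4 lie side by side on chromosome 11, from 67171027 to 67260446 on GRCm38 (GENCODE M21). They are closely related paralogs, so their split of reads is uncertain. In the reads of these 4 genes, Myh4 took 82.9, 70.3 and 74.1% in ERRKO_CL, 77.7, 51.8 and 62.3% in ERRKO_PBS, 85.4 and 71.7% in WT_CL replicates 1 and 3, and 69.9% in WT_PBS replicate 1. Myh4 was the leading myosin in each of the 9 libraries. Myh1 took 40.9% (95% Wilson interval 37.9 to 44.1%) in ERRKO_PBS replicate 2, against 7.91% (7.21 to 8.66%) in ERRKO_PBS replicate 1, so libraries of the same group differed beyond counting error. Myh7 took 2.78, 6.67 and 7.26% in ERRKO_CL, 1.41, 2.70 and 3.01% in ERRKO_PBS, 1.20 and 3.69% in WT_CL replicates 1 and 3, and 6.29% in WT_PBS replicate 1. ERRKO_CL replicates 2 and 3 and WT_PBS replicate 1 were highest, and the other 6 were at 3.69% or less.

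**Figure D4:**
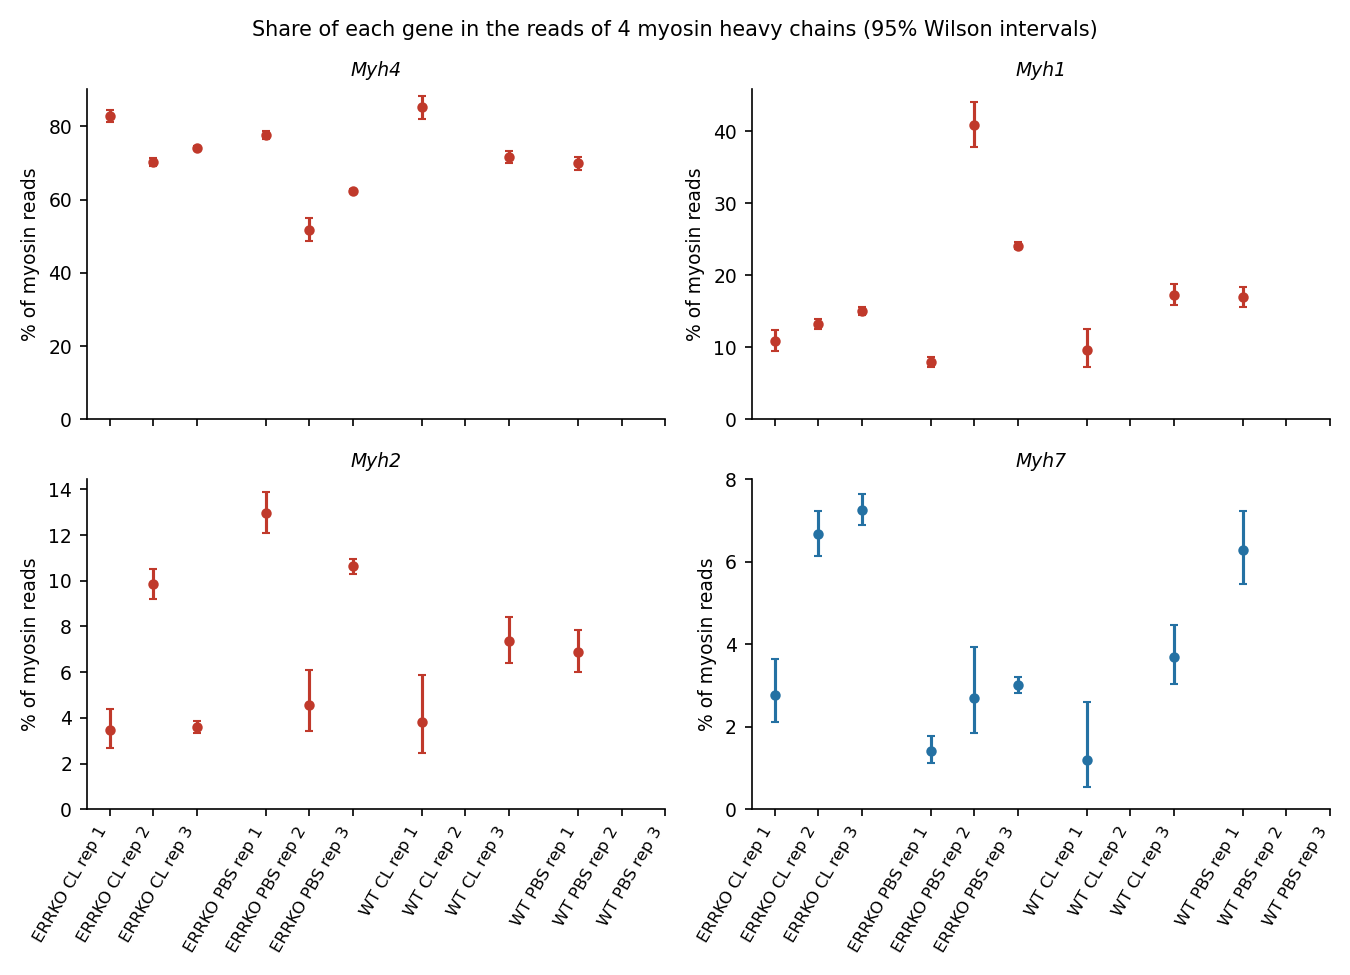
Share of Myh4, Myh1, Myh2 and Myh7 in the recovered reads of these 4 myosin heavy chain genes in the 9 libraries with Ckm of at least 1 scaled RPKM; points are libraries and bars are 95% Wilson intervals, which cover counting error only. Myh4 takes 51.8 to 85.4% of the reads and Myh7 1.20 to 7.26%.

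Between genotypes under PBS, every one of the 35 members had a higher fitted level in ERRKO_PBS than in WT_PBS, but none passed the test. A higher fitted level was found for 50.1% of all genes. Most members peaked in the same library, so their signs are not separate observations. The median log2 change of the members was 1.91, against 0.0011 over all genes tested, with 3.21 for the fast, 0.96 for the slow and 1.85 for the other members. All 35 passed the filter on low values, which uses the mean over all 12 libraries. Ttn, Neb, Ryr1, Cacna1s, Tnni1 and Ampd1 averaged under 0.5 scaled RPKM in both WT groups and passed only through their ERRKO levels. Trdn and Xirp2 averaged 0.559 and 0.657 scaled RPKM in WT_CL, and 0.358 and 0.350 in WT_PBS. The filter itself used deposited RPKM, which is lower than scaled RPKM in every WT library. On that scale more members, such as Trdn and Xirp2, may thus have passed only through ERRKO levels. Without a filter limma called 0 members as well, against 10.3% of all genes called higher. By limma with Benjamini-Hochberg adjustment over 12249 genes, 0 members passed at 0.05, where 15.6% of all genes were called higher. An unadjusted p under 0.05 was found for 15 members, against 44.5% of all genes in either direction. For no member did the 3 ERRKO_PBS libraries all exceed the 3 WT_PBS libraries, which held for 21.9% of all genes. The log2 change was 4.30 ± 1.86 for Ckm (SE, adjusted p = 0.0948 by limma), 3.47 ± 1.51 for Mylpf (adjusted p = 0.0955 by limma) and 1.74 ± 0.69 for Eno3 (adjusted p = 0.0721 by limma). It was 1.61 ± 0.94 for Tpm2 (adjusted p = 0.208 by limma), 0.94 ± 0.99 for Tnnc1 (adjusted p = 0.494 by limma) and 0.25 ± 0.62 for Des (adjusted p = 0.79 by limma).

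The call depended on the setting and on single libraries. On the deposited scale, where the median of all genes stands 0.529 higher in ERRKO_PBS on the log2 scale, limma called 24 members higher, against 66.3% of all genes. The edgeR quasi-likelihood test on recovered reads called Ampd1, the muscle AMP deaminase, and Eno3, against 17.7% of all genes. It gave 20 members an unadjusted p under 0.05, a count that stands here without the share of all genes and is not read as a result about the members. With limma, 19 members passed as higher without ERRKO_PBS replicate 2, against 13.5% of all genes, and 14 without WT_PBS replicate 1, against 13.4%. Without WT_CL replicate 2 there were 2, against 15.4% of all genes, and without WT_CL replicate 3 there was 1, against 14.7%. Without ERRKO_PBS replicate 3 none passed, against 12.4% of all genes, and the log2 changes of Des and Tnnc1 were -0.60 and -0.19.

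Under the agonist the pattern was alike, with 34 of 35 members above 0 in ERRKO_CL against WT_CL, against 51.4% of all genes. The median log2 change was 2.18, against 0.013 over all genes. Eno3 was called higher by limma with Benjamini-Hochberg adjustment, with a log2 change of 1.93 ± 0.69 (SE, adjusted p = 0.042), where 19.9% of all genes were called higher. Its levels were 16.4, 34.4 and 55.1 scaled RPKM in ERRKO_CL, against 5.50, 5.94 and 14.8 in WT_CL. Eno3 was the only member whose 3 ERRKO_CL libraries all exceeded the 3 WT_CL libraries, against 26.9% of all genes. In the 24 alternatives its adjusted p ran from 0.00449 to 0.144 by limma or edgeR and passed 0.05 in 16.

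For the other members in that comparison the log2 change was 3.58 ± 1.86 for Ckm (SE, adjusted p = 0.147 by limma), 3.02 ± 1.51 for Mylpf (adjusted p = 0.131 by limma) and 2.12 ± 0.99 for Tnnc1 (adjusted p = 0.108 by limma). It was 1.72 ± 0.94 for Tpm2 (adjusted p = 0.167 by limma) and -0.18 ± 0.62 for Des (adjusted p = 0.846 by limma). The slow members had a median of 2.17 and the fast members of 2.91. On the deposited scale, with the median of all genes 0.629 higher in ERRKO_CL, 22 members were called higher, against 70.5% of all genes. edgeR called 0 members, where it called 19.6% of all genes higher. It gave 3 members an unadjusted p under 0.05, again a count without the share of all genes beside it. With limma 3 members had an unadjusted p under 0.05, against 49.2% of all genes in either direction. Under limma 6 members passed as higher without ERRKO_CL replicate 1, among them all 4 slow genes, against 17.8% of all genes. Without ERRKO_PBS replicate 3 there were 3, against 19.6% of all genes, and without WT_CL replicate 3 there were 2, against 16.1%. None passed without ERRKO_CL replicate 2 or 3, WT_CL replicate 1 or 2, or WT_PBS replicate 2, where 16.4 to 19.4% of all genes were called higher.

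**Figure D5:**
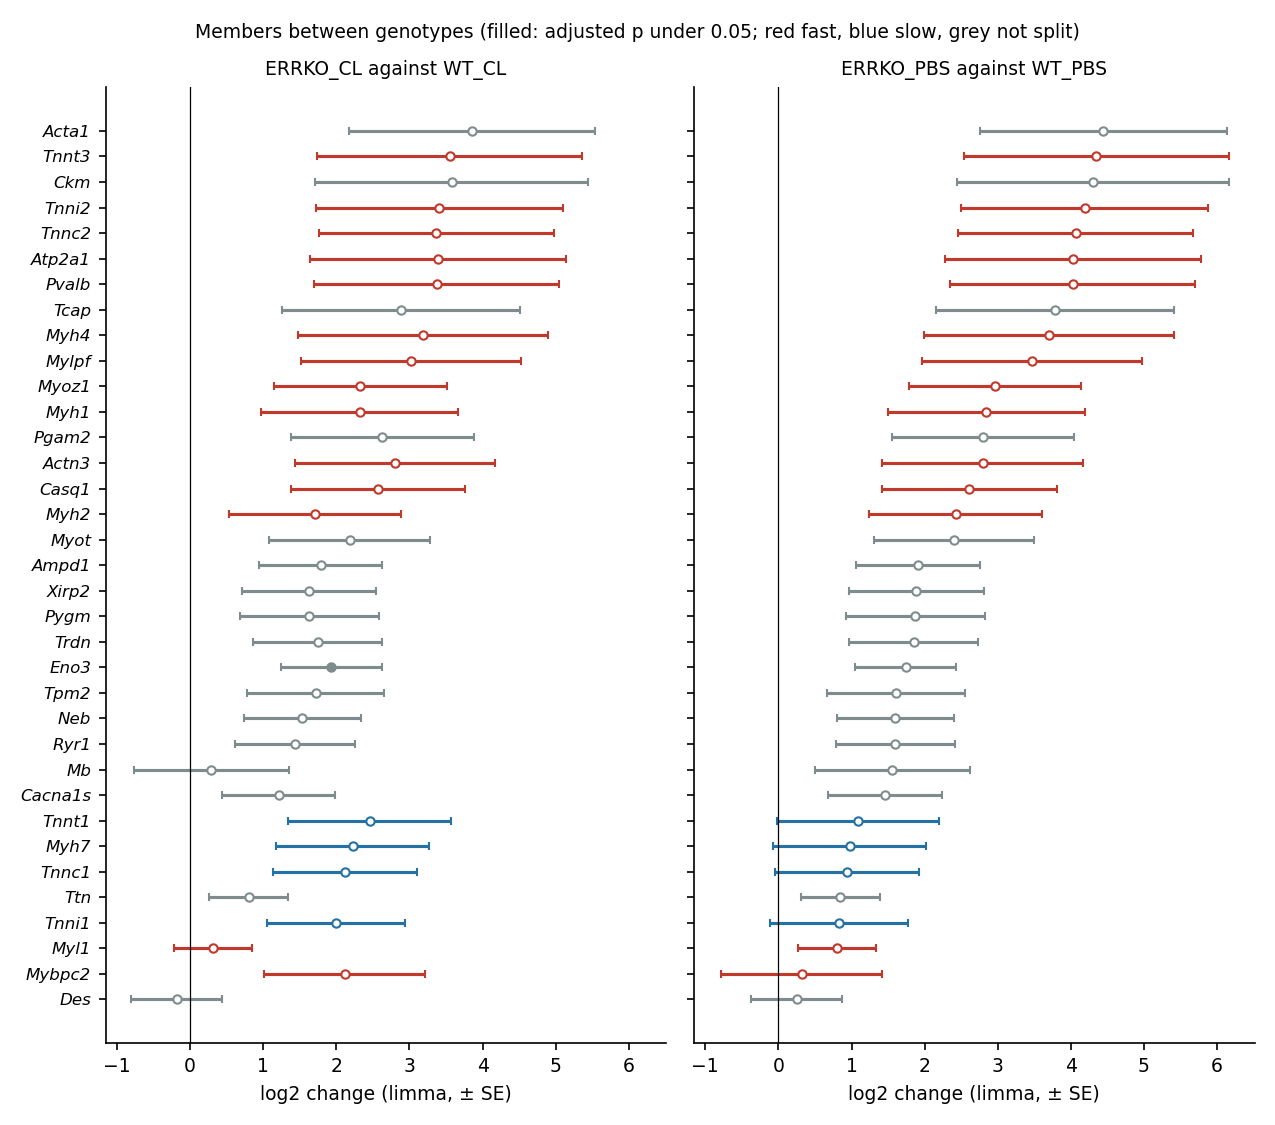
Log2 change with its standard error (limma, log2 of scaled RPKM plus 0.5) of each member in ERRKO_CL against WT_CL on the left and ERRKO_PBS against WT_PBS on the right; filled points have an adjusted p under 0.05. Eno3 in ERRKO_CL against WT_CL is the single filled point, and all 35 points on the right are above 0.

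The spread between libraries of a group was wide for these genes. The residual SD of the fit was 1.64 on the log2 scale in the median of the members, with a range of 0.782 to 2.78, against a median of 0.167 over all genes tested. Of all genes, 98.8% had a residual SD below that of the steadiest member. Ckm averaged 108 ± 96.3 scaled RPKM in ERRKO_CL, 149 ± 209 in ERRKO_PBS, 19.8 ± 26.0 in WT_CL and 12.9 ± 21.6 in WT_PBS (SD, n = 3 each), so that in each group but ERRKO_CL the SD exceeded the mean.

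The agonist gave no called member in either genotype. In WT_CL against WT_PBS limma called 0 of 35 members, where it called 30.3% of all genes in either direction, and edgeR called 0. An unadjusted p under 0.05 by limma was found for 0 members, against 41.2% of all genes. The median log2 change was 0.39, against 0.016 over all genes, with Ckm at 1.08 ± 1.86 (SE, adjusted p = 0.706 by limma) and Tnnc1 at 0.18 ± 0.99 (adjusted p = 0.915 by limma). Myl1 alone was higher in all 3 WT_CL than in all 3 WT_PBS libraries, against 24.3% of all genes, and its log2 change was 0.57 ± 0.53 (SE, adjusted p = 0.448 by limma).

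In ERRKO_CL against ERRKO_PBS limma also called 0 of 35 members, where it called 10.6% of all genes, and edgeR called 0. By limma 0 members had an unadjusted p under 0.05, against 25.5% of all genes. No member's 3 ERRKO_CL libraries all exceeded the 3 ERRKO_PBS libraries, against 19.7% of all genes. The slow members had a median log2 change of 1.20, the fast members 0.32 and the other members 0.098, against 0.030 over all genes. Tnnc1 was at 1.36 ± 0.99 (SE, adjusted p = 0.44 by limma) and Ckm at 0.36 ± 1.86 (adjusted p = 0.934 by limma).

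The difference between the genotypes in their response to the agonist was tested as an interaction. For it limma called 0 members, against 3.87% of all genes, and edgeR called 0. Again 0 members had an unadjusted p under 0.05 by limma, against 18.7% of all genes. The slow members had a median interaction of 1.21 on the log2 scale and the fast members of -0.58. Tnnc1 was at 1.18 ± 1.40 (SE, adjusted p = 0.725 by limma) and Ckm at -0.72 ± 2.64 (adjusted p = 0.93 by limma). Both standard errors exceeded the estimates.

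Genes outside the list that followed it most closely were ranked by the SD over the 9 libraries of log2 of their level over the summed level of the members. Genes were ranked if they averaged at least 1 scaled RPKM over all 12 libraries and were above 0 in each of the 9. Of 11047 genes ranked, 18 had an SD of at most 0.5, and the median was 1.57. Hrc, a histidine-rich calcium-binding protein of the sarcoplasmic reticulum, had the lowest SD at 0.121, with 0.538 to 15.4 scaled RPKM over the 9 libraries and at most 0.210 in the other 3. Tmod4, which caps actin filaments in muscle, followed at 0.235, and then Trim54, a ring-finger protein of the sarcomere, at 0.246. Mlf1 was at 0.277, Dhrs7c at 0.278, Scn4b, a sodium channel subunit, at 0.281, Smpx at 0.312, Lmod3, which nucleates thin filaments, at 0.312, Ckmt2, the mitochondrial creatine kinase of muscle, at 0.366 and Eef1a2, the elongation factor of muscle and nerve, at 0.385. All 10 were highest in ERRKO_PBS replicate 3, where the member sum is highest, and ranking by a steady ratio to that sum favours this outcome. Trim54 and Dhrs7c were at 0 in the other 3 libraries, so they met the minimum mean only through the 9.

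Of 20 further muscle genes, 17 passed the filter on low values. Limma called 2 of these, Jph1 and Phkg1, higher in ERRKO_PBS than in WT_PBS, against 15.6% of all genes. It called 1, Phkg1, higher in ERRKO_CL than in WT_CL, against 19.9% of all genes. Phkg1, the catalytic subunit of muscle phosphorylase kinase, had 1.26, 1.93 and 2.99 scaled RPKM in ERRKO_CL, 3.61, 4.12 and 7.77 in ERRKO_PBS, 0.346, 1.10 and 0.538 in WT_CL, and 1.45, 1.21 and 1.69 in WT_PBS. Its ERRKO_PBS libraries were all above its WT_PBS libraries, which held for 21.9% of all genes. The log2 change of Phkg1 there was 1.48 ± 0.31 (SE, adjusted p = 0.00299 by limma). The SD of the log2 ratio of Phkg1 to the members was 1.39, near the median of all ranked genes. Phkg1 was called lower in ERRKO_CL than in ERRKO_PBS, with a log2 change of -1.13 ± 0.31 (adjusted p = 0.0385 by limma), where 3.54% of all genes were called lower. Gys1, glycogen synthase, was at 30.8 to 52.8 scaled RPKM over the 12 libraries and was called higher in WT_CL than in WT_PBS, by 0.41 ± 0.11 on the log2 scale (adjusted p = 0.018 by limma). Srl, for sarcalumenin of the sarcoplasmic reticulum, was called higher there too, by 1.73 ± 0.49 (adjusted p = 0.0189 by limma). In WT_CL against WT_PBS 18.1% of all genes were called higher. Of the 6 further slow genes, limma called only Csrp3 higher in ERRKO_PBS than in WT_PBS, against 15.6% of all genes. None was called higher in ERRKO_CL than in WT_CL, against 19.9% of all genes. Myh3, the embryonic myosin, reached at most 0.0354 scaled RPKM and Sln, for sarcolipin, at most 0.699.

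A list of 7 energy genes of muscle, most of them also known from brown fat, was set beside the members. Limma called 5 of the 7 lower in ERRKO_PBS than in WT_PBS, against 18.6% of all genes, and the same 5, Cox7a1, Cox8b, Fabp3, Cpt1b and Slc25a4, lower in ERRKO_CL than in WT_CL, against 21.6%. Ckmt2 of this list was at 0 in WT_CL replicate 2 and WT_PBS replicates 2 and 3. Cox7a1, a subunit of respiratory complex IV, was at 24.6, 20.9 and 39.4 scaled RPKM in ERRKO_CL, 8.73, 9.26 and 38.5 in ERRKO_PBS, 1373, 1098 and 1384 in WT_CL, and 476, 461 and 744 in WT_PBS. Fabp3, a fatty acid carrier, was at 10.5, 27.4 and 27.5 scaled RPKM in ERRKO_CL, 7.63, 6.66 and 57.6 in ERRKO_PBS, 453, 506 and 386 in WT_CL, and 982, 1026 and 983 in WT_PBS. Both were far lower in every ERRKO library than in any WT library, and in ERRKO_PBS both were highest in replicate 3, the library with most member transcripts. The part of muscle transcripts in these ERRKO_PBS values was not tested.

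Markers of other cell types were set beside the members. Summed levels of 5 measured satellite cell and myoblast genes were at most 1.19 scaled RPKM, highest in ERRKO_PBS replicate 3, and Pax7 reached at most 0.0208. The 6 heart genes summed to 0.273 to 1.49 scaled RPKM, and Nppa, the atrial peptide gene, was at 0 in all 12 libraries. The 7 smooth muscle genes summed to 34.3 to 46.9 scaled RPKM in ERRKO_CL, 49.7 to 63.7 in ERRKO_PBS, 47.7 to 48.1 in WT_CL and 49.9 to 58.9 in WT_PBS. The 4 nerve and Schwann cell genes summed to 10.9 to 34.2 scaled RPKM over all libraries, with ERRKO_CL replicate 1 highest. The smooth muscle sum was highest in ERRKO_PBS replicate 1, the fifth of the 12 libraries by summed member level, and ERRKO_CL replicate 1 was the seventh. The part of these cell types in the members' levels was not tested.

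Overlapping annotation limits some members, since the use of strand in counting is not given in the sources used here. Besides Tnnc2, Mb shares 31.9% of its exon bases with genes on the other strand, among them Apol6, which was at 81.5 to 136 scaled RPKM in ERRKO libraries, against 22.8 to 34.6 in WT libraries. Atp2a1, the fast calcium pump, shares 21.9% with Rabep2, Cacna1s 20.0%, Ckm 15.5% and Myh7 13.3% with other genes.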

How the data were processed

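Total RNA of brown adipose tissue was sequenced from 12 libraries. The authors deposited a table of RPKM values for 24452 genes and a second table of linear, depth-normalized signal per gene. The submitters' processing notes name STAR 2.3.0, cutadapt, edgeR and bcl2fastq 2.16.0.10, and builds mm9 and mm10 without a role. How reads were assigned to genes, with which annotation and whether by strand, is not given in the sources used here. Of the deposited signal values, 100% were whole multiples of a step per library (tolerance 0.01), which gave back read counts. In it, 9 stray cells were not used.

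RPKM values were divided by median-ratio factors from 14005 genes. limma 3.58.1 (R 4.3.3, empirical Bayes with trend, two-sided) was fitted to log2(scaled RPKM + 0.5) of 12249 genes with a mean deposited RPKM of at least 0.5, with 4 group means over 12 libraries and Benjamini-Hochberg adjustment over all genes in each of 5 comparisons at 0.05. Fold changes are on that scale, which understates the change of low genes. For 12380 genes the recovered reads were also tested with the quasi-likelihood test of edgeR 4.0.16. On simulated data for ERRKO_PBS against WT_PBS (12249 genes), the fit recovered 89% of 2-fold and 99% of 4-fold changes, and 10 of its 198 calls were false. The changed genes there had a residual SD under 0.5, below that of every member, so these shares do not carry over to the members. Coordinates and overlaps come from GENCODE M21 (GRCm38), and promoters from RefSeq.

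All 35 members and the genes of the further lists could be named, and the 10 other genes most like the members. The members and lists were chosen with earlier results of these data known. Alternatives were the scaling, pseudocount, filter, variance fit, libraries fitted, replicate block, tool and leaving out each library.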

Additional observations from a re-analysis of the deposited data

How the results depend on the processing

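The cause of no difference below was tested. The count of members called in ERRKO_PBS against WT_PBS was 24 on the deposited scale (66.3% of all genes higher), 1 with quantile normalization (18.9%) and 2 with edgeR (17.7%). In ERRKO_CL against WT_CL it was 22 on the deposited scale (70.5% of all genes higher), 0 without a filter (13.7%) and 0 with the robust fit (19.9%). It was 5 with only the groups compared (20.8%) and 0 with edgeR (19.6%). Leaving out 1 library gave 0 to 19 and 0 to 6 called members in these comparisons, where 12.0 to 15.6% and 16.1 to 21.4% of all genes were called higher. The counts of 0 in the agonist comparisons and the interaction were 0 under every alternative run.

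Libraries with the same replicate number were not treated as pairs in the main fit. The correlation of their deviations ran from -0.389 to 0.454, which does not settle whether they were paired. A replicate block gave 7 called members in ERRKO_PBS against WT_PBS, where 15.0% of all genes were called higher, and 2 in ERRKO_CL against WT_CL, where 19.2% were.

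For 6 followed genes (Ckm, Des, Eno3, Mylpf, Tnnc1 and Tpm2), 144 values per comparison were recomputed. The sign turned in 6 of them between genotypes under PBS and in 2 between genotypes under the agonist. It turned in 15 for the agonist in WT mice, in 22 for the agonist in ERRKO mice and in 29 for the interaction, so directions in the last 3 are not settled. On the deposited scale the log2 change was 0.51 for Des in ERRKO_CL against WT_CL, -0.064 for Tnnc1 in WT_CL against WT_PBS, and -0.084 for Eno3 and -0.11 for Tpm2 in ERRKO_CL against ERRKO_PBS. Quantile normalization gave -0.007 for Eno3 and -0.029 for Tpm2 in ERRKO_CL against ERRKO_PBS. edgeR gave -0.19 for Tnnc1 in WT_CL against WT_PBS; -0.50 for Ckm, -0.39 for Eno3, -0.30 for Mylpf and -0.51 for Tpm2 in ERRKO_CL against ERRKO_PBS; and -0.35 for Eno3 and -0.49 for Tpm2 in the interaction. Leaving out 1 library gave these ranges of the log2 change. It was -0.60 to 0.93 for Des and -0.19 to 1.93 for Tnnc1 in ERRKO_PBS against WT_PBS. It was -0.59 to 0.30 for Des in ERRKO_CL against WT_CL. It was -0.40 to 2.94 for Ckm, -0.50 to 0.29 for Eno3, -0.22 to 2.47 for Mylpf, -0.23 to 0.86 for Tnnc1 and -0.55 to 0.56 for Tpm2 in WT_CL against WT_PBS. It was -0.82 to 1.72 for Ckm, -0.78 to 0.75 for Des, -0.46 to 1.04 for Eno3, -0.53 to 1.89 for Mylpf and -0.74 to 1.23 for Tpm2 in ERRKO_CL against ERRKO_PBS. It was -2.59 to 0.76 for Ckm, -1.11 to 0.42 for Des, -0.39 to 1.11 for Eno3, -1.91 to 0.88 for Mylpf and -0.73 to 1.24 for Tpm2 in the interaction.

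Leaving out ERRKO_PBS replicate 3 and ERRKO_CL replicate 3 together was an alternative chosen after seeing the data. Limma then called 0 members in ERRKO_PBS against WT_PBS, where 11.7% of all genes were called higher. It called 1 in ERRKO_CL against WT_CL, where 16.2% of all genes were called higher. The log2 change was then -0.60 for Des and -0.19 for Tnnc1 in ERRKO_PBS against WT_PBS, 0.34 for Des in ERRKO_CL against ERRKO_PBS, and 0.012 for Des and 0.20 for Mylpf in the interaction. edgeR without both gave -0.56 for Des and -0.38 for Tnnc1 in ERRKO_PBS against WT_PBS, -0.20 for Tnnc1 in WT_CL against WT_PBS, 0.31 for Des in ERRKO_CL against ERRKO_PBS, and 0.29 for Ckm and 0.043 for Mylpf in the interaction.

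The SD over libraries of the log2 fast to slow ratio was 1.41 with myosin heavy chains only, without WT_CL replicate 2, where Myh7 was at 0. It was 1.48 with the median log2 of the genes, and 0.64 to 0.76 with 1 library left out. Depth limits the libraries poorest in muscle transcripts, where the 4 myosins had 7, 10 and 40 reads.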
